A study of Mus musculus with 9 samples.

Results

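E14 mouse embryonic stem cells of the 129 strain, carrying wild-type Hbxip, were profiled by RNA-seq as embryoid bodies and in pluripotent culture, and the embryoid body library was set against the pluripotent one. These are 2 of the 9 libraries of the series, picked out by their genotype and condition labels. The series crosses 2 genotypes, wild type (WT) and Hbxip-/- (KO), with 3 conditions: embryoid bodies, 96 h of LIF withdrawal, and pluripotent culture. Each condition has 1 WT library and 2 KO libraries. The labels do not state the age of the embryoid bodies or their medium, and do not say if the KO libraries came from separate cultures or clones. The p-values below therefore measure only the spread between the KO libraries of a condition, which may be technical. E14 is 1 cell line of 1 genetic background, and each WT condition is 1 library. Hbxip is listed under its current symbol Lamtor5, a subunit of the Ragulator complex that tethers mTORC1 to lysosomes. Its level was 41.8 FPKM in WT embryoid bodies and 40.7 FPKM in WT pluripotent culture. The libraries labelled Hbxip-/- held 23 and 18.3 FPKM of it in embryoid bodies, 16.2 and 15.5 FPKM after LIF withdrawal, where WT had 38.5 FPKM, and 31 and 29.1 FPKM in pluripotent culture. The transcript was thus lower than in WT in all 6 KO libraries and absent from none, and since the labels do not give the deleted part of the gene, a level over the whole gene does not check the genotype. FPKM is the authors' count scaled by transcript length and library total. Where no genotype is given below, the libraries are WT.

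Mouse embryonic stem cells in pluripotent culture hold a naive state that LIF sustains through STAT3 and that rests on factors such as Nanog, Klf4 and Esrrb. When the cells aggregate into embryoid bodies they pass through states that resemble the epiblast after implantation, marked by Fgf5 and Otx2, and then form cells resembling those of the primitive streak, marked by T (brachyury) and driven by WNT and NODAL signals. Germ layer derivatives appear later in such aggregates. Each library gives the mean over its cells, so fewer cells of a type and less RNA per cell cannot be told apart.

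Both libraries held core pluripotency transcripts at high levels. Pou5f1, the gene of OCT4, was at 655 FPKM in embryoid bodies and 821 FPKM in pluripotent culture. Sox2, its partner, was at 330.4 FPKM in embryoid bodies and 282 FPKM in pluripotent culture. Markers of cells that such cultures could carry besides their own were mixed. Of 12 fibroblast genes, Fap, Dcn, Lum and Postn had no count in either library and Col3a1 had 3 counts in embryoid bodies and 2 counts in pluripotent culture. Others were present: Thy1 had 451 counts in embryoid bodies and 634 counts in pluripotent culture, Col1a1 had 362 counts in embryoid bodies and 125 counts in pluripotent culture, and Col1a2 had 44 counts in embryoid bodies and 8 counts in pluripotent culture, a ratio of 5.64 with an interval of 2.63 to 13.9. The summed level of the 12 was 68.6 FPKM in embryoid bodies and 196 FPKM in pluripotent culture. Of this Vim, which many cell types express, gave 32.1 FPKM in embryoid bodies and 157 FPKM in pluripotent culture. The leukocyte gene Ptprc had 0 counts in embryoid bodies and 4 counts in pluripotent culture. The part of such cells in the results below was not tested. Libraries of the series held 10147301 to 10863866 counts, with 10335770 in WT embryoid bodies and 10602514 in WT pluripotent culture, and 17993 and 17940 genes were listed in these libraries in that order. A gene absent from a file was taken as 0, and a count of 0 was given a floor of 3 counts per library, which is 0.276 to 0.296 CPM, the count scaled by the library total, across the 9 libraries.

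The embryoid body library differed from the pluripotent library more than KO libraries of the same condition differed from each other. Of 13990 genes with a mean of at least 0.5 FPKM over the 9 libraries, 1221 were at least 2-fold higher and 1057 at least 2-fold lower in embryoid bodies with a 95% counting interval of the CPM ratio that excluded 1, together 16.3%. By the same count, 1.47% of genes differed between the 2 KO pluripotent libraries, 1.56% between the 2 KO libraries after LIF withdrawal and 0.929% between the 2 KO embryoid body libraries. Among the 9899 genes with a mean of at least 100 counts over the WT libraries compared, the median absolute log2 ratio was 0.342 between embryoid bodies and pluripotent culture. In the KO pairs, over the genes with as many counts there, this median was 0.0894 between the KO embryoid body libraries, 0.110 between those of LIF withdrawal and 0.0941 between the pluripotent ones. Counting intervals are exact binomial ones and cover counting error only.

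**Figure D1:**
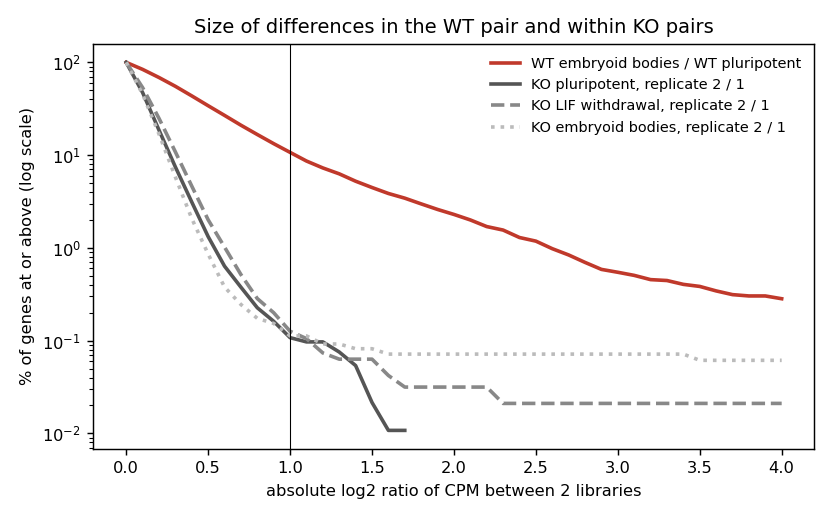
Share of genes with a mean of at least 100 counts over the pair (y axis, percent, log scale) whose absolute log2 CPM ratio reaches the value on the x axis, for WT embryoid bodies over WT pluripotent culture and for the 3 pairs of KO libraries of 1 condition. The WT curve lies above the 3 KO curves over the range shown; at a log2 ratio of 1 it stands at 10.7%, against 0.108% to 0.126% in the KO pairs.

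With 1 WT library per condition, the test borrowed its spread from the KO pairs. In the quasi-likelihood test of edgeR, adjusted by Benjamini-Hochberg over all 13990 genes, a gene was called when its adjusted p was below 0.05 and its change at least 2-fold; all adjusted p-values below come from this test and all changes are log2 fold changes ± SE. The test called 1116 genes higher (7.98% of those tested) and 894 lower (6.39%) in embryoid bodies, with a median change over all genes of 0.01. Of these, 313 were higher and 274 lower by at least 4-fold. The biological coefficient of variation estimated from the KO pairs was 6.52%, and the lone WT libraries were assumed to vary like those pairs. With a coefficient of 20%, 690 genes were higher and 579 lower, and with 40% 65 were higher and 29 lower. The SE of a gene with many counts in 1 library and few in the other can fall below its counting error.

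Of the genes with the largest rises, Fgf8, a ligand that guides cells through the primitive streak, had 357 counts in embryoid bodies and 0 counts in pluripotent culture. With the 0 set at the floor of 3 counts its CPM was 122-fold higher in embryoid bodies. The counting interval of its ratio began at 98.8, and its adjusted p was 5.22e-07. Fgf5, a ligand of the epiblast after implantation, was at 78.8 FPKM in embryoid bodies and 0.42 FPKM in pluripotent culture. This was a change of 7.47 ± 0.30 (adjusted p = 1.50e-08). Sema6a, a semaphorin that guides axons, reached 21.6 FPKM in embryoid bodies and 0.15 FPKM in pluripotent culture, a change of 7.19 ± 0.25. Enpp2, the gene of autotaxin that makes lysophosphatidic acid, had 480 counts in embryoid bodies and 3 counts in pluripotent culture, a ratio of 164 with an interval of 55.8 to 799. Magel2, an imprinted gene expressed from the paternal allele, stood at 41.2 FPKM in embryoid bodies and 0.46 FPKM in pluripotent culture (6.49 ± 0.27, adjusted p = 1.71e-08). The carbonic anhydrase gene Car4 had 141 FPKM in embryoid bodies and 1.88 FPKM in pluripotent culture (6.24 ± 0.30). Fst, the gene of follistatin that binds activins, had 29.8 FPKM in embryoid bodies and 0.58 FPKM in pluripotent culture (5.68 ± 0.32, adjusted p = 2.01e-07). T and Foxa2 also belong to the 12 largest rises and are described with the streak and endoderm genes. Fgf5, Sema6a, Magel2 and Car4 each had 1562 to 2072 counts in embryoid bodies and 11 to 26 counts in pluripotent culture, so these rises rest on well-counted transcripts.

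The remaining 3 of the 12 largest rises rested on few counts or on shared reads. H2-Q8, a non-classical MHC class I gene, had 49 counts in embryoid bodies and 0 counts in pluripotent culture (adjusted p = 0.00169). Its ratio was 16.8 at the floor of 3 counts, with an interval from 13.1. The gene belongs to a family of near-identical genes among which the counting could split reads, so its value is uncertain. The short precursor genes Mir92-2 and Mir363, neighbours in 1 microRNA cluster, each had 9 counts in embryoid bodies and none in pluripotent culture. Both ratios were 3.08 at the floor, with intervals from 2.02. Mir92-2 passed the filter of 0.5 FPKM only through the embryoid body library, so its direction was set by that library. Counts over such short precursors in libraries of total RNA do not measure mature microRNAs. DESeq2 called none of these 3 genes.

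The largest fall was that of Inhbb, which encodes the subunit of activin B. It had 2 counts in embryoid bodies and 1004 counts in pluripotent culture, or 0.04 and 22 FPKM in that order, a CPM ratio of 0.00204 with an interval of 0.000247 to 0.00740 and an adjusted p of 1.90e-08. Socs3, the feedback inhibitor that STAT3 induces, was at 4.45 FPKM in embryoid bodies and 68 FPKM in pluripotent culture (-3.91 ± 0.13, adjusted p = 9.43e-09). Myo1g, an unconventional myosin gene, was at 0.23 FPKM in embryoid bodies and 7.52 FPKM in pluripotent culture (-4.97 ± 0.35). Myo1f, a related myosin, was at 0.42 FPKM in embryoid bodies and 8.22 FPKM in pluripotent culture (-4.24 ± 0.36). Mras, a RAS-family GTPase, had 0.9 FPKM in embryoid bodies and 18.4 FPKM in pluripotent culture (-4.34 ± 0.22, adjusted p = 1.06e-07). Emp1, an epithelial membrane protein, had 0.46 FPKM in embryoid bodies and 16.8 FPKM in pluripotent culture (-5.16 ± 0.39). The protease inhibitor gene A2m had 0.96 FPKM in embryoid bodies and 17.2 FPKM in pluripotent culture (-4.14 ± 0.56). Hal, which starts the breakdown of histidine, had 0.24 FPKM in embryoid bodies and 4.53 FPKM in pluripotent culture (-4.18 ± 0.40).

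The other 4 of the 12 largest falls had at most 1 count in embryoid bodies. Spink1, a trypsin inhibitor gene, had 0 counts in embryoid bodies and 29 counts in pluripotent culture. At the floor of 3 counts it was 9.42-fold lower, with a ratio interval up to 0.139. Ly6g6d, a member of the LY6 family of surface proteins, had 1 count in embryoid bodies and 41 counts in pluripotent culture, a ratio of 0.0250 with an interval of 0.000619 to 0.147. The precursor genes Mir8114 and Mir8112 had no count in embryoid bodies and 26 and 10 counts in pluripotent culture. At the floor their levels were 8.45-fold and 3.25-fold lower, with ratio intervals up to 0.156 and 0.458. DESeq2 called neither precursor nor Spink1.

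Naive pluripotency genes were lower in embryoid bodies for the most part. Of 17 naive factors and markers, all tested, 10 fell and 1 rose, with a median change of -1.17, against 6.39% of all genes called lower and a median of 0.01. The shares of all genes, 7.98% called higher and 6.39% called lower, stand beside every list count of this comparison. Klf4, a Krüppel-like factor downstream of LIF, fell to 17.3 FPKM in embryoid bodies, against 155 FPKM in pluripotent culture (-3.14 ± 0.14, adjusted p = 4.33e-08). Tfcp2l1, another factor that LIF sustains, was at 7 FPKM in embryoid bodies and 34.1 FPKM in pluripotent culture (-2.26 ± 0.12). Tbx3, a T-box factor of the naive network, was at 26.1 FPKM in embryoid bodies and 104 FPKM in pluripotent culture (-1.98 ± 0.11). The orphan receptor gene Esrrb had 64.5 FPKM in embryoid bodies and 186 FPKM in pluripotent culture (-1.51 ± 0.11, adjusted p = 1.24e-06), and Nr5a2, another nuclear receptor gene, had 7.27 FPKM in embryoid bodies and 19.8 FPKM in pluripotent culture (-1.43 ± 0.14). Prdm14, a repressor of FGF signalling and of DNA methylation genes, was at 3.71 FPKM in embryoid bodies and 14.2 FPKM in pluripotent culture (-1.92 ± 0.20). Zfp42, the gene of REX1, stayed abundant at 214 FPKM in embryoid bodies and 489 FPKM in pluripotent culture (-1.17 ± 0.10). The falls of Klf5, Tcl1 and Tet2 were between -1.88 and -1.14.

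Some naive genes moved little or the other way. Nanog was at 214 FPKM in embryoid bodies and 389.8 FPKM in pluripotent culture, a change of -0.89 ± 0.14 that passed the adjusted p (0.000356) but not the 2-fold limit. Klf2, a Krüppel-like factor, was at 193 FPKM in embryoid bodies and 284 FPKM in pluripotent culture (-0.54 ± 0.11), also short of 2-fold. Nr0b1, the gene of DAX1, was at 26.4 FPKM in embryoid bodies and 29.4 FPKM in pluripotent culture, close to level. The 1 rise was Dppa3 (Stella), a maternal and germ cell factor that also marks naive cells, with 9.35 FPKM in embryoid bodies and 1.66 FPKM in pluripotent culture (2.50 ± 0.46, adjusted p = 0.00110). Its 77 and 14 counts in that order make it one of the less abundant members, and DESeq2 did not call it. Together the 17 genes summed to 1157 FPKM in embryoid bodies and 2335 FPKM in pluripotent culture.

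Of 12 genes of LIF signalling, all tested, 5 fell and none rose, with a median change of -0.67. For each list here with no call in a direction, edgeR's test also found no member past 2-fold that way at an unadjusted p below 0.05, and neither DESeq2 nor limma on log2(FPKM + 1) called one; 0 to 8 members a list had an unadjusted p below 0.05 with a smaller change that way. Stat3, the transcription factor that LIF activates, was at 9.22 FPKM in embryoid bodies and 27.1 FPKM in pluripotent culture (-1.54 ± 0.11, adjusted p = 1.52e-06). Bcl3, a STAT3 target, was at 3.8 FPKM in embryoid bodies and 26.9 FPKM in pluripotent culture (-2.80 ± 0.19). Socs3, Klf4 and Tfcp2l1, described above, were the others. The receptor chains were not called: Lifr was at 7.68 FPKM in embryoid bodies and 13.2 FPKM in pluripotent culture (-0.69 ± 0.11) and Il6st, the gene of gp130, at 11.6 FPKM in embryoid bodies and 9.39 FPKM in pluripotent culture (0.32 ± 0.14). Nor were the STAT3 targets Pim1, with 58.2 FPKM in embryoid bodies and 54.8 FPKM in pluripotent culture, and Junb, with 28.1 FPKM in embryoid bodies and 32.8 FPKM in pluripotent culture.

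The promoters of the genes that fell were read for the palindrome that STAT factors bind. The motif TTCNNNGAA, which reads the same on both strands, was searched in windows of 250 bases before to 50 after each RefSeq start (build GRCm38.p6), and at least 1 copy was found in 8.30% of 32851 windows of all genes, in 6.64% of windows of genes tested here and in 7.76% of windows of genes called lower. Of the 10 naive or LIF genes called lower that had a window (12 windows), 2 held it. These were Socs3, whose match began 154 bases before the start, and Esrrb, whose match began 178 bases before it. The 250 bases before each of these starts are shown 5′ to 3′ on the strand of the gene, with the match in capitals: chr11:117969367-117969616 on the minus strand for Socs3 and chr12:86360867-86361116 on the plus strand for Esrrb.
Socs3: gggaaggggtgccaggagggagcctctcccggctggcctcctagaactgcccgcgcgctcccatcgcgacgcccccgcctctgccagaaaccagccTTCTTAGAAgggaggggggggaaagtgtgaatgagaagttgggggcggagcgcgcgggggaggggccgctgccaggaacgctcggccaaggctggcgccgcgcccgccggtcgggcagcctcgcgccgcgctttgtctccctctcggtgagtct
Esrrb: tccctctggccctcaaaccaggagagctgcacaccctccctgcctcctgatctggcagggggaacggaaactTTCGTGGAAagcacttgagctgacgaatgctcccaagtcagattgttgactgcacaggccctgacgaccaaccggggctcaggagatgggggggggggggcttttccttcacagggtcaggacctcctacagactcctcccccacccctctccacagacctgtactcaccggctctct
A match describes the letters of this window and does not show that a factor binds there.

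General pluripotency genes, shared by naive and epiblast-like cells, were mostly near level. Of 14 such genes, 3 fell and none rose, with a median change of -0.02. Tdgf1 (Cripto), a co-receptor for NODAL, fell to 228 FPKM in embryoid bodies, against 895 FPKM in pluripotent culture (-1.95 ± 0.13, adjusted p = 5.22e-07). Gdf3, a TGF-beta family ligand, was at 15.2 FPKM in embryoid bodies and 38.8 FPKM in pluripotent culture (-1.33 ± 0.19). The RNA-binding protein gene L1td1 was at 89.1 FPKM in embryoid bodies and 223 FPKM in pluripotent culture (-1.30 ± 0.11). Dppa5a was the most abundant of the 14 in both libraries, with 2604 FPKM in embryoid bodies and 1723 FPKM in pluripotent culture (0.62 ± 0.10), and was not called. Lin28a, which blocks let-7 microRNA processing, was at 111 FPKM in embryoid bodies and 90.7 FPKM in pluripotent culture (0.31 ± 0.11), and Utf1 at 405 FPKM in embryoid bodies and 343 FPKM in pluripotent culture (0.26 ± 0.13).

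Most formative epiblast genes rose. All 12 passed the filter, 7 rose and none fell, with a median change of 1.80, against 7.98% of all genes called higher. Otx2, the homeobox factor that moves the cells out of the naive state, was at 161 FPKM in embryoid bodies and 32.9 FPKM in pluripotent culture (2.33 ± 0.22, adjusted p = 1.14e-05). Pou3f1 (OCT6) was at 43.3 FPKM in embryoid bodies and 3.67 FPKM in pluripotent culture (3.58 ± 0.24, adjusted p = 6.19e-07). Dnmt3b, a de novo DNA methyltransferase, was at 182 FPKM in embryoid bodies and 41.3 FPKM in pluripotent culture (2.15 ± 0.14, adjusted p = 4.73e-07). These 3 and Fgf5 are the usual markers of the formative state, and each was at least 4-fold higher. The transcription factor genes Sall2, Sox3 and Zic2 rose by 2.60 ± 0.14, 2.41 ± 0.22 and 1.46 ± 0.20. Members that were not called were Dnmt3a, with 22.3 FPKM in embryoid bodies and 29.5 FPKM in pluripotent culture, Lef1, with 10.8 FPKM in embryoid bodies and 9.47 FPKM in pluripotent culture, Tcf15, with 51.1 FPKM in embryoid bodies and 54.3 FPKM in pluripotent culture, and Zic5 and Fgf15, with changes of 0.62 ± 0.18 and 0.79 ± 0.15. Zic2 was not called by DESeq2.

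Primitive streak genes rose for the most part. Of 18 genes, 13 passed the filter on low values, of which Gsc and Cyp26a1 passed only through the embryoid body library, so that their direction was set by it. Of the other 11, 8 rose and 1 fell, with a median change of 3.03, the highest of the 35 lists when such genes are left out of each. The filter still favoured rises among them. T, Fgf8, Sp5, Wnt3 and Evx1 averaged under 0.5 FPKM over the libraries other than WT embryoid bodies and WT LIF withdrawal. They passed only through these libraries, so the count of rises, the median and its rank are not free of the filter. T, the T-box factor that defines the streak, had 509 counts in embryoid bodies and 6 counts in pluripotent culture, or 24 and 0.28 FPKM in that order (6.43 ± 0.35, adjusted p = 1.66e-07). Eomes, a T-box factor of mesoderm and endoderm precursors, was at 35 FPKM in embryoid bodies and 5.1 FPKM in pluripotent culture (2.79 ± 0.17, adjusted p = 4.14e-07), so it was present in pluripotent culture as well. Mixl1, a homeobox factor of the streak, was at 5.67 FPKM in embryoid bodies and 0.7 FPKM in pluripotent culture (3.03 ± 0.44). Wnt8a, a WNT ligand of the streak, was at 15.8 FPKM in embryoid bodies and 0.31 FPKM in pluripotent culture (5.64 ± 0.39, adjusted p = 9.80e-07). Wnt3, the ligand required for the streak in the mouse embryo, had 80 counts in embryoid bodies and 6 counts in pluripotent culture (3.76 ± 0.56). Sp5, a direct WNT target, was at 9.89 FPKM in embryoid bodies and 0.22 FPKM in pluripotent culture (5.44 ± 0.52). Cyp26a1, which breaks down retinoic acid, was at 4.13 FPKM in embryoid bodies and 0.21 FPKM in pluripotent culture (4.26 ± 0.62). Gsc (goosecoid), an anterior streak factor, had 46 counts in embryoid bodies and 3 counts in pluripotent culture, a ratio of 15.7 with an interval of 5.06 to 79.1. Evx1, a posterior streak factor, had 59 counts in embryoid bodies and 12 counts in pluripotent culture (2.34 ± 0.44). With DESeq2, Gsc and Evx1 were not called.

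The streak genes that missed the filter pointed in both directions. Cer1, a secreted NODAL and WNT inhibitor, had 32 counts in embryoid bodies and 0 counts in pluripotent culture. Its ratio was 10.9 at the floor of 3 counts, and its counting interval began below that value but above 1. Lhx1, a LIM homeobox factor, had 36 counts in embryoid bodies and 1 in pluripotent culture, a ratio of 36.9 with an interval of 6.22 to 1499. Mesp1, a factor of early mesoderm, had 16 counts in embryoid bodies and 1 in pluripotent culture, a ratio of 16.4 with an interval of 2.55 to 688. Lower counts in embryoid bodies were seen for Wnt3a, with 2 counts in embryoid bodies and 10 counts in pluripotent culture, and Nkx1-2, with 7 counts in embryoid bodies and 19 counts in pluripotent culture; their intervals of 0.0219 to 0.963 and 0.134 to 0.939 lay below 1. Fgf17 was the 1 tested member that fell, at 6.72 FPKM in embryoid bodies and 14.9 FPKM in pluripotent culture (-1.12 ± 0.21), a call that DESeq2 did not make. The later mesoderm genes Tbx6 and Mesp2 were not called, with 0.62 FPKM in embryoid bodies and 0.6 FPKM in pluripotent culture for Tbx6 and 1.83 FPKM in embryoid bodies and 2.72 FPKM in pluripotent culture for Mesp2.

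**Figure D2:**
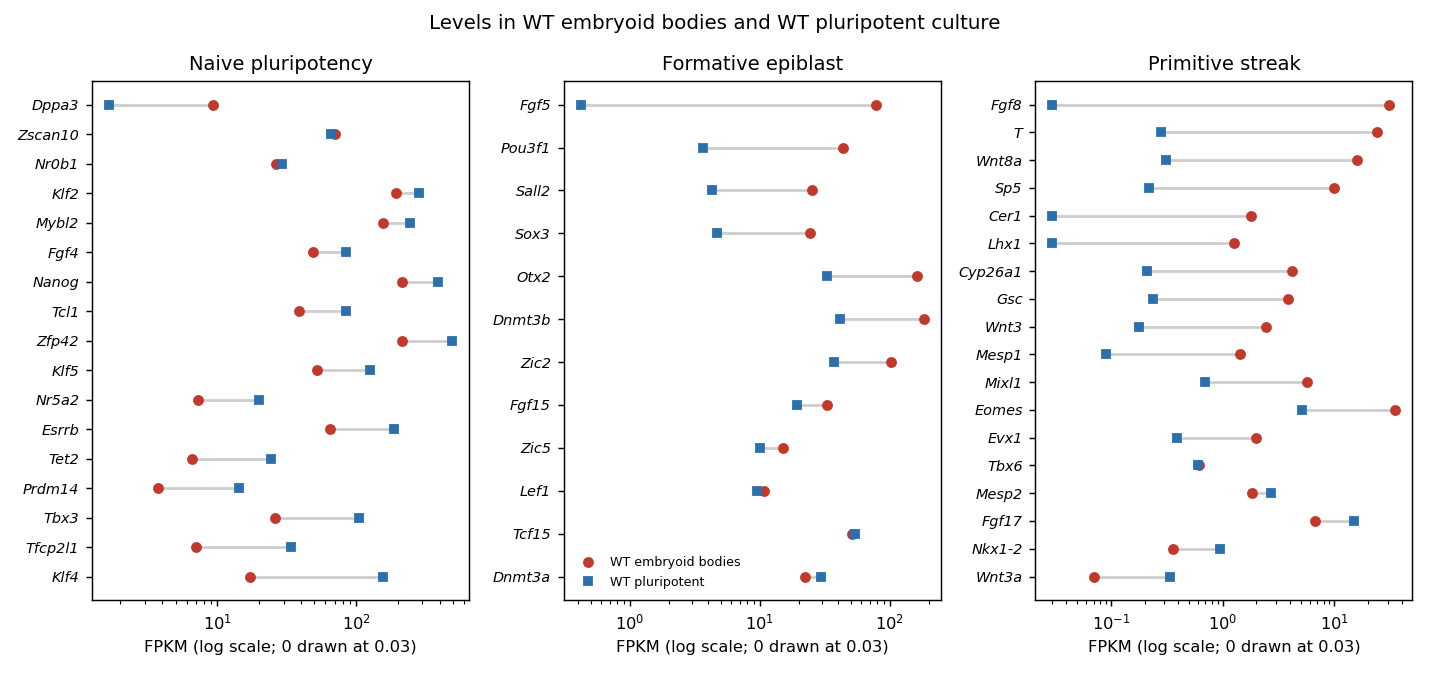
FPKM on a log axis of each naive, formative and primitive streak gene in WT embryoid bodies (red circles) and WT pluripotent culture (blue squares), 1 library each, with genes at 0 drawn at 0.03. The embryoid body points lie left of the pluripotent points for 15 of the 17 naive genes and right of them for 10 of the 12 formative and 14 of the 18 streak genes.

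A short sequence that TCF and LEF factors bind was searched in the promoter windows of the streak and WNT genes that rose. Either of CTTTGAT and CTTTGAA, on both strands (ATCAAAG and TTCAAAG), occurred in 8.65% of windows of all genes, in 5.89% of windows of genes tested and in 6.67% of windows of genes called higher. Of the 12 streak or WNT genes called higher that had a window (15 windows), 3 held a match: Sp5 with a match starting 104 bases before its start, T at 235 bases and Wnt5b at 71 bases. The windows of Sp5, chr2:70474673-70474922, and T, chr17:8434173-8434422, both on the plus strand of GRCm38.p6, are shown up to the start with the match in capitals.
Sp5: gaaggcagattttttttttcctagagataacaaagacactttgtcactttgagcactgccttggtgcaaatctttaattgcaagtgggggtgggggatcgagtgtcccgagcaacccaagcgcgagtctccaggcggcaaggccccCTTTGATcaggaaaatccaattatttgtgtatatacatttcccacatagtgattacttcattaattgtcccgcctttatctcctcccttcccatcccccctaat
T: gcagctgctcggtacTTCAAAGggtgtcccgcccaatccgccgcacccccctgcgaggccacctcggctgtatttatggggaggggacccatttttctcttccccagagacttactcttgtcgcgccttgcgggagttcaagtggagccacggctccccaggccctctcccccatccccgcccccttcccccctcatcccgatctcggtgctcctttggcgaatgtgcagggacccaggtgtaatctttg
The share of list genes with a match cannot be read as binding, and no match says only that these letters are not in this window.

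FGF signalling genes split between ligands, feedback inhibitors and targets. Of 20 genes, 8 rose and 3 fell; the median change was -0.30 while the mean was 1.21, since the rises were large. Among the ligands Fgf5 and Fgf8 rose and Fgf17 fell, as given above, whereas Fgf4, the main ligand of naive cells, was at 49.2 FPKM in embryoid bodies and 84.1 FPKM in pluripotent culture (-0.75 ± 0.12) and was not called. Among the receptors, Fgfr1 was at 40.8 FPKM in embryoid bodies and 20.4 FPKM in pluripotent culture (1.01 ± 0.10) and Fgfr2 at 2.74 FPKM in embryoid bodies and 0.54 FPKM in pluripotent culture (2.32 ± 0.32, adjusted p = 0.000157). Fgfr3 and Fgfr4 were not called, with -0.58 ± 0.23 and -0.31 ± 0.25. Feedback inhibitors that ERK induces went both ways. Dusp6, a phosphatase of ERK, reached 132 FPKM in embryoid bodies and 20.9 FPKM in pluripotent culture (2.68 ± 0.15, adjusted p = 2.13e-07). Dusp4, a related phosphatase, was at 26.2 FPKM in embryoid bodies and 2.71 FPKM in pluripotent culture (3.29 ± 0.27). Spry1 was at 41.1 FPKM in embryoid bodies and 8.01 FPKM in pluripotent culture (2.41 ± 0.17) and Spry2 at 81.4 FPKM in embryoid bodies and 39.6 FPKM in pluripotent culture (1.06 ± 0.11), both sprouty inhibitors of receptor signalling. Spry4, of the same family, fell to 33.2 FPKM in embryoid bodies, against 77.3 FPKM in pluripotent culture (-1.20 ± 0.10). The ETS factor gene Etv4 fell as well, with 21 FPKM in embryoid bodies and 70.0 FPKM in pluripotent culture (-1.72 ± 0.12, adjusted p = 1.24e-06), while its relative Etv5 was at 115 FPKM in embryoid bodies and 142 FPKM in pluripotent culture (-0.29 ± 0.10). The rise of Fgfr1, just past 2-fold, was not called by limma on log2(FPKM + 1).

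WNT pathway genes also moved in both directions. Of 33 genes, 27 were tested, 10 rose and 6 fell, with a median change of 0.55. Among the ligands, Wnt8a and Wnt3 rose, as did Wnt4, with 5.43 FPKM in embryoid bodies and 2.54 FPKM in pluripotent culture (1.11 ± 0.20), and Wnt5b, with 2.19 FPKM in embryoid bodies and 0.8 FPKM in pluripotent culture (1.46 ± 0.47). Wnt6 fell, with 0.42 FPKM in embryoid bodies and 3.15 FPKM in pluripotent culture (-2.87 ± 0.42, adjusted p = 0.000260). The frizzled receptors went both ways: Fzd7 was at 72.7 FPKM in embryoid bodies and 16.1 FPKM in pluripotent culture (2.19 ± 0.10, adjusted p = 4.54e-08) and Fzd8 at 4.64 FPKM in embryoid bodies and 1.15 FPKM in pluripotent culture (2.03 ± 0.27). Fzd5 was at 6.35 FPKM in embryoid bodies and 27.8 FPKM in pluripotent culture (-2.13 ± 0.11, adjusted p = 1.48e-07) and Fzd10 at 5.24 FPKM in embryoid bodies and 11.5 FPKM in pluripotent culture (-1.11 ± 0.24). The co-receptor gene Lrp5 rose, with 27.6 FPKM in embryoid bodies and 12.1 FPKM in pluripotent culture (1.22 ± 0.12). Of the nuclear factors, Tcf7 rose, with 56.8 FPKM in embryoid bodies and 23.5 FPKM in pluripotent culture (1.27 ± 0.14), and Ctnnb1, the gene of beta-catenin, was at 261 FPKM in embryoid bodies and 236 FPKM in pluripotent culture (0.14 ± 0.10). Targets of the pathway were not of 1 direction either. Axin2, a feedback target, was at 13.9 FPKM in embryoid bodies and 6.35 FPKM in pluripotent culture (1.15 ± 0.15), whereas Notum, a secreted inhibitor that is also a target, was at 3.97 FPKM in embryoid bodies and 13 FPKM in pluripotent culture (-1.69 ± 0.23). Porcn, which acylates WNT ligands, fell, with 18 FPKM in embryoid bodies and 49.9 FPKM in pluripotent culture (-1.56 ± 0.20), and so did the inhibitor gene Sfrp5, with 0.81 FPKM in embryoid bodies and 4.82 FPKM in pluripotent culture (-2.54 ± 0.45). Of the 6 untested members, 3 had counting intervals above 1 and 1, Wnt3a, an interval below it. Wnt5b was called neither by DESeq2 nor by limma on log2(FPKM + 1), and Wnt4 not by limma.

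In the NODAL and activin pathway, 18 of 20 genes were tested, 3 rose and 3 fell, with a median change of 0.23. Nodal itself was at 59 FPKM in embryoid bodies and 45.1 FPKM in pluripotent culture (0.41 ± 0.14) and was not called. Its feedback inhibitors Lefty1 and Lefty2 were close to level, with 28.8 FPKM in embryoid bodies and 30.3 FPKM in pluripotent culture for Lefty1 and 63.7 FPKM in embryoid bodies and 56.8 FPKM in pluripotent culture for Lefty2. The fall of the activin gene Inhbb and the rise of the activin antagonist gene Fst were the largest changes of the pathway. The falls of Tdgf1 and Gdf3 are given with the pluripotency genes. The receptor gene Acvr2b rose, with 14 FPKM in embryoid bodies and 6.94 FPKM in pluripotent culture (1.03 ± 0.10). Foxh1, the DNA-binding partner of SMAD2, was at 43.5 FPKM in embryoid bodies and 24.8 FPKM in pluripotent culture (0.83 ± 0.12), short of 2-fold. Acvr2b was not called by limma on log2(FPKM + 1).

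Most BMP genes were not called. Of 21 genes, 16 were tested, 3 rose and 2 fell, with a median change of 0.13. Bmp4, the main ligand in these cells by FPKM, fell, with 11.2 FPKM in embryoid bodies and 25.3 FPKM in pluripotent culture (-1.14 ± 0.21). Smad6, an inhibitor of the pathway, fell, with 1.42 FPKM in embryoid bodies and 3.06 FPKM in pluripotent culture (-1.08 ± 0.28). The BMP targets Id1 and Id3 were near level, with 137 FPKM in embryoid bodies and 126 FPKM in pluripotent culture for Id1 and 56.5 FPKM in embryoid bodies and 53.1 FPKM in pluripotent culture for Id3, while Id2 and Id4 rose by 1.07 ± 0.16 and 1.81 ± 0.43. Msx1, a homeobox gene that BMP induces, was at 5.81 FPKM in embryoid bodies and 0.54 FPKM in pluripotent culture (3.44 ± 0.46, adjusted p = 0.000128). In the NOTCH pathway, 11 of 14 genes were tested, 3 rose (Notch2, Dll3 and Nrarp) and none fell, with a median of 0.24; their changes were between 1.03 and 1.18, and the target Hes1 was at 33.3 FPKM in embryoid bodies and 33.5 FPKM in pluripotent culture. Smad6, Id4, Dll3 and Nrarp were not called by DESeq2, and limma on log2(FPKM + 1) did not call Notch2.

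**Figure D3:**
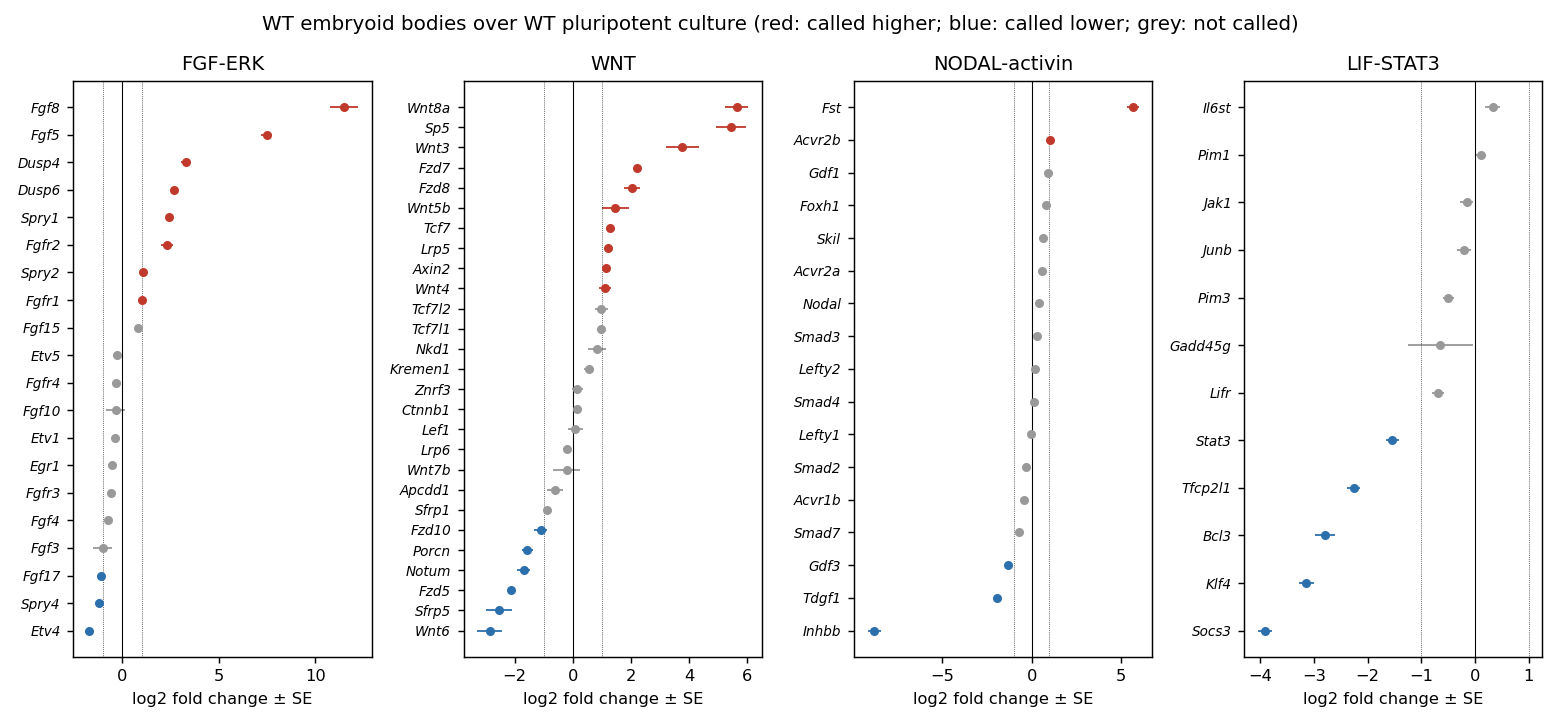
Log2 fold change ± SE (x axis), WT embryoid bodies over WT pluripotent culture, of the tested genes of 4 pathways that are reported by name here, with called rises in red, called falls in blue and uncalled genes in grey. Fitted changes of 11.47 for Fgf8, which has 0 counts in pluripotent culture, and -8.83 for Inhbb stand in the same pathways as genes near 0, and LIF-STAT3 has no gene called higher.

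Genes of germ layer derivatives beyond the streak were mostly low in both libraries, and their calls were mixed. Among mesoderm and cardiac genes, 13 of 23 were tested, 5 rose and 1 fell, with a median change of 0.56. Nkx2-5, not called, passed the filter only through the WT pluripotent library, and without it the median was 0.75. Snai1, the factor of epithelial-mesenchymal transition in gastrulation, was at 9.74 FPKM in embryoid bodies and 4.35 FPKM in pluripotent culture (1.18 ± 0.24). Twist1, another such factor, was at 3.15 FPKM in embryoid bodies and 1.08 FPKM in pluripotent culture (1.55 ± 0.44). Gata4 was at 1.1 FPKM in embryoid bodies and 0.41 FPKM in pluripotent culture (1.42 ± 0.43), and Msx1 is given above. Actc1, cardiac actin, had 8 counts in embryoid bodies and 0 counts in pluripotent culture. Its ratio was 2.74 at the floor of 3 counts, with an interval from 1.75. Myl7, an atrial myosin light chain, was lower at 3.2 FPKM in embryoid bodies and 11.4 FPKM in pluripotent culture (-1.80 ± 0.50). Heart and lateral mesoderm genes such as Tnnt2, Foxf1 and Tcf21 were at 0 FPKM in embryoid bodies. Of the 10 untested members, 2 had counting intervals above 1, both on few counts. Mef2c had 19 counts in embryoid bodies and 6 in pluripotent culture, with an interval of 1.25 to 9.94. Isl1 had 9 counts in embryoid bodies and 1 in pluripotent culture, with an interval of 1.28 to 405. Kdr, the VEGF receptor of early mesoderm and endothelium, was at 0.21 FPKM in embryoid bodies and 0.32 FPKM in pluripotent culture (-0.60 ± 0.55) and was not called. The calls for Gata4, Twist1, Actc1 and Myl7 were not made by DESeq2.

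In blood and endothelium, 8 of 16 genes were tested, 1 rose and 2 fell, with a median of -0.59. Klf1, not called, passed the filter only through the WT pluripotent library, and without it the median was -0.46. Etv2, the factor that starts both lineages, had 50 counts in embryoid bodies and 13 counts in pluripotent culture (1.99 ± 0.62, adjusted p = 0.0236). Pecam1, an endothelial gene that naive stem cells also express, fell, with 10.2 FPKM in embryoid bodies and 32.1 FPKM in pluripotent culture (-1.66 ± 0.12), and Tek, an angiopoietin receptor gene, fell, with 2 FPKM in embryoid bodies and 4.89 FPKM in pluripotent culture (-1.28 ± 0.21). The embryonic globin genes Hbb-bh1 and Hbb-y had no count in either library. No call was made by DESeq2 for Etv2, or by limma on log2(FPKM + 1) for Tek.

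The definitive endoderm list held rises and uncalled genes but no falls, and its rises outside Foxa2 were of Trh, Cldn6, Krt8 and Krt18. Of 10 genes, 9 were tested, of which Foxa2 passed the filter only through the embryoid body library. Of the other 8, 4 rose and none fell, with a median of 0.94. Foxa2, a forkhead factor of the anterior streak and endoderm, had 92 counts in embryoid bodies and 1 in pluripotent culture, a ratio of 94.4 with an interval of 16.5 to 3768. It was not called by DESeq2. Sox17, which defines endoderm once formed, was not tested, with 0.4 FPKM in embryoid bodies and 0.14 FPKM in pluripotent culture. Trh, the gene of thyrotropin-releasing hormone, was abundant in both, with 1206 FPKM in embryoid bodies and 452 FPKM in pluripotent culture (1.44 ± 0.17, adjusted p = 4.68e-05). Cldn6, a tight junction gene, was at 147 FPKM in embryoid bodies and 28.4 FPKM in pluripotent culture (2.39 ± 0.12, adjusted p = 6.81e-08). The keratin genes Krt8 and Krt18, of simple epithelia, rose by 1.23 ± 0.16 and 1.62 ± 0.16. They were at 14.35 and 13.45 FPKM already in pluripotent culture, and both are counted among the epithelial genes as well. Cxcr4 and Hhex, also endoderm genes, were at -0.09 ± 0.36 and -0.48 ± 0.33 and were not called. Nor were Foxa1, at 0.26 ± 0.49, and Prdm1, at 0.66 ± 0.22.

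Among extraembryonic endoderm genes, 18 of 23 were tested, 4 rose and 5 fell, with a median of -0.67. Apoe, an apolipoprotein gene with broad expression, was at 298 FPKM in embryoid bodies and 98.8 FPKM in pluripotent culture (1.62 ± 0.15). Dab2 and Lrp2, of endocytosis, rose by 1.81 ± 0.20 and 1.11 ± 0.12, and Plat, tissue plasminogen activator, by 1.45 ± 0.49. The falls were Sox7, with 0.7 FPKM in embryoid bodies and 1.92 FPKM in pluripotent culture, Hnf4a, with 0.26 FPKM in embryoid bodies and 1.49 FPKM in pluripotent culture, and the basement membrane genes Lama1, Col4a1 and Col4a2, with changes of -2.23 ± 0.14, -1.64 ± 0.20 and -1.35 ± 0.19. Gata6, the lineage's first factor, was at 1.5 FPKM in embryoid bodies and 0.73 FPKM in pluripotent culture (1.05 ± 0.46) and was not called. Afp and Ttr, markers of visceral endoderm, had 0 counts in embryoid bodies, with 2 and 1 in pluripotent culture. Sox7 and Plat were not called by DESeq2, and limma on log2(FPKM + 1) did not call Hnf4a or Lrp2.

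Neuroectoderm genes fell more often than they rose. Of 20 genes, 9 were tested, 1 rose and 4 fell, with a median of -1.07. Sox21, not called, passed the filter only through the WT pluripotent library, and the median without it was also -1.07. Sox1, the earliest neural marker of the list, had 8 counts in embryoid bodies and 39 counts in pluripotent culture (-2.21 ± 0.59). Tubb3, a neuronal tubulin, fell to 20.3 FPKM in embryoid bodies, against 118 FPKM in pluripotent culture (-2.52 ± 0.15, adjusted p = 2.75e-07). Ncam1, a neural adhesion molecule, was at 2.03 FPKM in embryoid bodies and 7.13 FPKM in pluripotent culture (-1.82 ± 0.19). Gbx2, which also sustains naive cells downstream of LIF, was at 1.27 FPKM in embryoid bodies and 15.3 FPKM in pluripotent culture (-3.57 ± 0.29). Sox11 was the 1 rise, with 15.2 FPKM in embryoid bodies and 2.09 FPKM in pluripotent culture (2.88 ± 0.21). Of the untested members, 3 had counting intervals above 1, yet none of them reached 1 FPKM. In the trophoblast list, 10 of 13 were tested, with Cdx2 and Gata3 higher (2.35 ± 0.77 and 2.13 ± 0.52), Ascl2 and Tead4 lower (-1.64 ± 0.27 and -1.79 ± 0.28) and a median of -0.01. Tpbpa and Prl3d1, of placental cells, had no count in either library. With DESeq2, Cdx2 and Gata3 were not called, and limma on log2(FPKM + 1) did not call Sox1.

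Hox and Cdx genes, which give cells their position along the body axis, were low. The level was higher in embryoid bodies for 19 of the 20. Of these genes 8 were tested, of which Hoxb1 and Hoxd1 passed the filter only through the embryoid body library. Of the other 6, Cdx2 rose, Cdx1 fell (-1.39 ± 0.25), and the median was 0.75. Of the 12 untested members, Hoxa2, Hoxa5, Hoxb5 and Hoxb8 had counting intervals above 1, on 7 to 10 counts in embryoid bodies and 0 or 1 in pluripotent culture. Hoxb1, an early Hox gene in gastrulation, had 33 counts in embryoid bodies and 1 in pluripotent culture, a ratio of 33.9 with an interval of 5.67 to 1377. No member exceeded 2.93 FPKM in embryoid bodies, the level of Cdx1. Among 2-cell-like genes, 9 of 13 were tested, Zscan4c rose with 33 FPKM in embryoid bodies and 15.3 FPKM in pluripotent culture (1.12 ± 0.29), none fell, and the median was 0.70. The 1 rise is close to the 7.98% of all genes. The Zscan4 and Usp17l genes are near-identical copies whose reads the counting could split, so single members are uncertain. DESeq2 did not call Hoxb1 or Zscan4c.

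Germline genes gave 1 rise, Dppa3, and 2 falls among 14 tested, with a median of -0.37, against 7.98% of all genes that rose and 6.39% that fell. Stra8, a gene of meiotic entry, fell, with 2.94 FPKM in embryoid bodies and 9.53 FPKM in pluripotent culture (-1.67 ± 0.41), though not with DESeq2. Nanos3, of primordial germ cells, had 0.27 FPKM in embryoid bodies and 1.87 FPKM in pluripotent culture (-2.68 ± 0.99); its adjusted p of 0.04995 lay at the limit and was 0.0631 without KO embryoid body replicate 1 and 0.0634 without replicate 2, in a range of 0.0271 to 0.651 over 15 alternatives. Of the 12 fibroblast genes, 4 were tested; Col1a1 rose, with 5.81 FPKM in embryoid bodies and 1.96 FPKM in pluripotent culture, Vim fell, and the median was 0.17. Of 8 leukocyte genes, 3 were tested and Cd68 fell, with 6.19 FPKM in embryoid bodies and 14.6 FPKM in pluripotent culture, a lysosomal protein gene that is not confined to leukocytes; the median was -1.14.

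**Figure D4:**
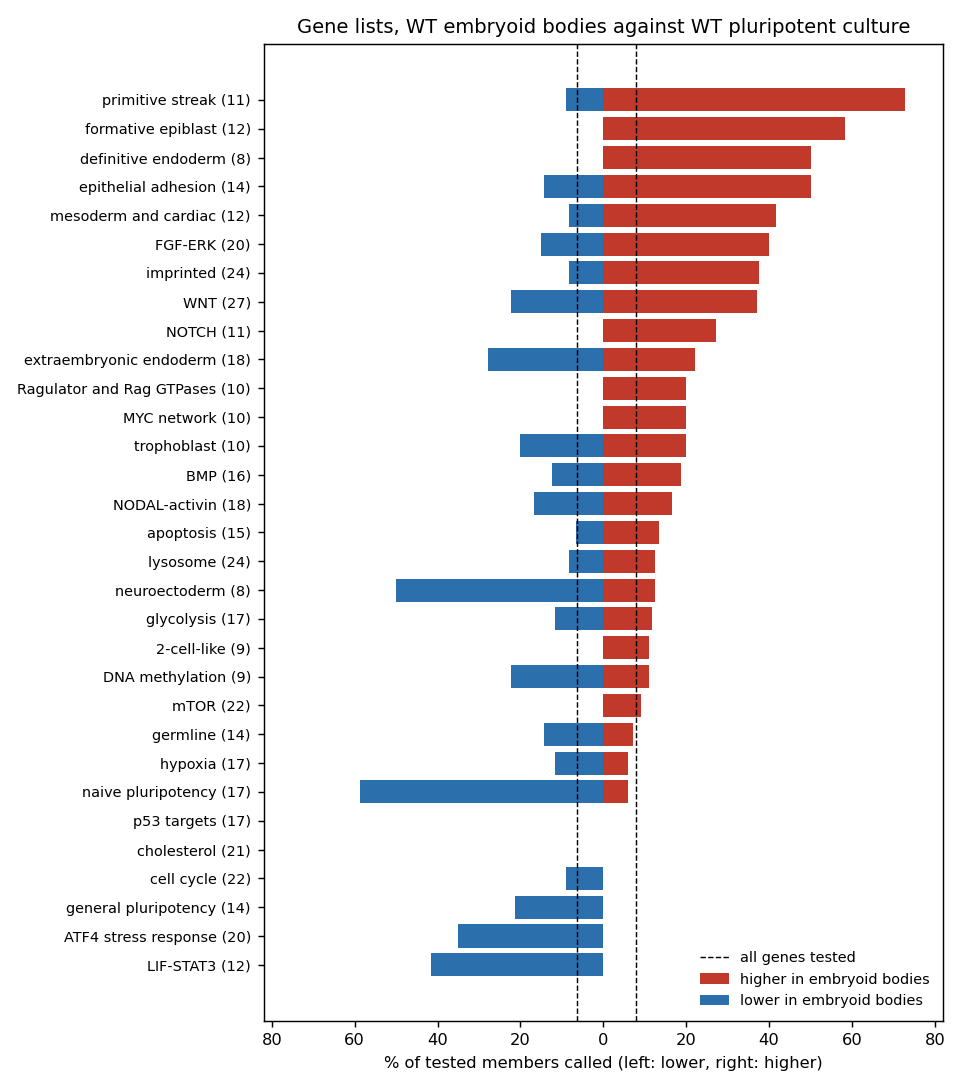
Percent of the tested members of each list (x axis) called higher or lower in WT embryoid bodies than in WT pluripotent culture, for the lists with 8 or more tested genes (number in brackets), without members that pass the filter on low values through 1 WT library alone; the dashed lines mark the 7.98% and 6.39% of all genes. Primitive streak (8 of 11) and formative (7 of 12) genes stand at the top for rises, and naive (10 of 17) genes for falls. Streak genes that passed the filter only through the WT embryoid body and WT LIF withdrawal libraries together are kept.

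Epithelial genes rose more often than they fell. Of 15 adhesion and epithelial genes, 14 were tested, 7 rose and 2 fell, with a median of 0.90. Epcam, an epithelial adhesion molecule, was at 94.1 FPKM in embryoid bodies and 43.6 FPKM in pluripotent culture (1.13 ± 0.12). Grhl2, a factor of epithelial identity, was at 15.3 FPKM in embryoid bodies and 4.18 FPKM in pluripotent culture (1.89 ± 0.21, adjusted p = 3.72e-05). The claudin genes Cldn3, Cldn4 and Cldn7 rose by 1.21 ± 0.35, 1.28 ± 0.16 and 1.53 ± 0.25. Vim, the mesenchymal intermediate filament, fell to 32.1 FPKM in embryoid bodies, against 157 FPKM in pluripotent culture (-2.27 ± 0.14, adjusted p = 3.31e-07). Zeb1, a repressor of epithelial genes, was at 0.83 FPKM in embryoid bodies and 3 FPKM in pluripotent culture (-1.82 ± 0.20). Its relative Zeb2 was not tested and went the other way, with 35 counts in embryoid bodies and 7 counts in pluripotent culture, a ratio of 5.13 with an interval of 2.24 to 13.7. Krt19, a keratin gene of simple epithelia, was at 13.2 FPKM in embryoid bodies and 22.9 FPKM in pluripotent culture, a CPM ratio of 0.495, and was not called. Cdh1, the gene of E-cadherin, was at 188 FPKM in embryoid bodies and 149 FPKM in pluripotent culture (0.35 ± 0.10) and Cdh2, that of N-cadherin, at 3.13 FPKM in embryoid bodies and 1.98 FPKM in pluripotent culture (0.68 ± 0.23); neither was called. Cldn3 was not called by DESeq2.

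Imprinted genes, expressed from 1 parental allele, were higher more often than lower. All 24 were tested, 9 rose and 2 fell, with a median of 0.93, or 0.81 with 0 counts placed at the floor of 3. Besides Magel2, the paternally expressed Peg10, a retrotransposon-derived gene, reached 254 FPKM in embryoid bodies and 47 FPKM in pluripotent culture (2.45 ± 0.13, adjusted p = 1.61e-07). Snrpn, a splicing factor gene of the same imprinted region as Magel2 and Ndn, was at 547 FPKM in embryoid bodies and 158 FPKM in pluripotent culture (1.81 ± 0.12, adjusted p = 6.55e-07). Ndn was at 18.3 FPKM in embryoid bodies and 7.62 FPKM in pluripotent culture (1.28 ± 0.18). Peg3, a zinc finger gene, was at 32.2 FPKM in embryoid bodies and 9.03 FPKM in pluripotent culture (1.85 ± 0.15). H19, a non-coding RNA of the maternal allele, had 82 counts in embryoid bodies and 4 counts in pluripotent culture (4.37 ± 0.56), and its neighbour Igf2, a growth factor gene of the paternal allele, was at 5.9 FPKM in embryoid bodies and 2.43 FPKM in pluripotent culture (1.01 ± 0.26). Sgce and Impact rose by 1.42 ± 0.25 and 1.09 ± 0.17. The falls were Grb10, an inhibitor of insulin signalling, with 0.21 FPKM in embryoid bodies and 2.94 FPKM in pluripotent culture (-3.77 ± 0.41, adjusted p = 2.82e-05), and Phlda2, a repressor of placental growth, with 28 FPKM in embryoid bodies and 60.1 FPKM in pluripotent culture (-1.08 ± 0.18). The maternally expressed RNAs of the Dlk1 region were not called: Meg3 changed by 1.63 ± 0.90 and Rian by 1.96 ± 0.83, and their counts in the 2 KO embryoid body libraries were 323 and 150 for Meg3 and 453 and 245 for Rian. With DESeq2, Igf2 was not called. Whether the counting used strand is not given, so antisense partners such as Kcnq1ot1 and Kcnq1 cannot be told apart.

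Among DNA methylation genes, 1 of 9 rose and 2 fell, with a median of -0.44. Dnmt3b rose, as given above, whereas Tet1 and Tet2, which oxidise methylcytosine, fell, with 12.1 FPKM in embryoid bodies and 33 FPKM in pluripotent culture for Tet1 (-1.43 ± 0.11) and 6.53 FPKM in embryoid bodies and 24.4 FPKM in pluripotent culture for Tet2 (-1.88 ± 0.15). Dnmt3l, the cofactor of the de novo enzymes, was at 129 FPKM in embryoid bodies and 203 FPKM in pluripotent culture (-0.64 ± 0.12) and was not called. Among 22 cell cycle genes, 2 fell and none rose, with a median of -0.27, against 6.39% of all genes that fell and 7.98% that rose. These were D-type cyclins: Ccnd1 was at 18.1 FPKM in embryoid bodies and 51.7 FPKM in pluripotent culture (-1.49 ± 0.15, adjusted p = 1.26e-05) and Ccnd2 at 0.88 FPKM in embryoid bodies and 4.59 FPKM in pluripotent culture (-2.36 ± 0.28). Ccnd3, the most abundant of the 3, was at 98 FPKM in embryoid bodies and 187 FPKM in pluripotent culture (-0.91 ± 0.12), short of 2-fold, and the proliferation marker Mki67 was at 23.1 FPKM in embryoid bodies and 25.9 FPKM in pluripotent culture (-0.15 ± 0.10). In the MYC network, 2 of 10 rose and none fell, with a median of 0.37: Mycn was at 76.8 FPKM in embryoid bodies and 37.5 FPKM in pluripotent culture (1.06 ± 0.12) and Mycl at 19.9 FPKM in embryoid bodies and 6.98 FPKM in pluripotent culture (1.51 ± 0.18), while Myc was at 22.2 FPKM in embryoid bodies and 31.7 FPKM in pluripotent culture (-0.49 ± 0.15).

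Genes of the ATF4 response, which amino acid shortage and other stresses switch on, fell in part. Of 20 ATF4 targets and partners, 7 fell and none rose, with a median of -0.82. Chac1, which degrades glutathione, fell to 1.53 FPKM in embryoid bodies, against 15.6 FPKM in pluripotent culture (-3.32 ± 0.29, adjusted p = 5.23e-06). Asns, asparagine synthetase, was at 122 FPKM in embryoid bodies and 282 FPKM in pluripotent culture (-1.20 ± 0.09), and Psat1, of serine synthesis, at 63 FPKM in embryoid bodies and 166 FPKM in pluripotent culture (-1.38 ± 0.10). Ddit3 (CHOP), Trib3, Atf3 and Atf5, regulators of the response, fell as well, their changes lying between -1.86 and -1.31; DESeq2 did not call Atf3. Atf4 itself was at 81.5 FPKM in embryoid bodies and 141 FPKM in pluripotent culture (-0.80 ± 0.13), short of 2-fold.

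Glycolysis genes gave 2 rises and 2 falls among 17, with a median of -0.38. These counts, and those of the hypoxia genes below, are close to the 7.98% of all genes that rose and the 6.39% that fell. The isozymes went in opposite directions: Pfkm was at 23.4 FPKM in embryoid bodies and 10.3 FPKM in pluripotent culture (1.21 ± 0.12) and Pfkp at 69.2 FPKM in embryoid bodies and 182 FPKM in pluripotent culture (-1.37 ± 0.21), both phosphofructokinases. Ldhb was at 350.0 FPKM in embryoid bodies and 114 FPKM in pluripotent culture (1.64 ± 0.14, adjusted p = 3.62e-06) and Ldha at 1039 FPKM in embryoid bodies and 1634 FPKM in pluripotent culture (-0.63 ± 0.17), both lactate dehydrogenases, of which Ldha was not called. Hk2, a hexokinase gene, fell, with 15.7 FPKM in embryoid bodies and 44.2 FPKM in pluripotent culture (-1.47 ± 0.13). Among 17 genes that hypoxia induces, 1 rose and 2 fell, with a median of -0.75. Vegfa, the angiogenic factor, was at 5.17 FPKM in embryoid bodies and 18.3 FPKM in pluripotent culture (-1.88 ± 0.40) and Ndrg1 at 4.89 FPKM in embryoid bodies and 25.7 FPKM in pluripotent culture (-2.37 ± 0.29), while Pdk1 rose with 76.1 FPKM in embryoid bodies and 38.4 FPKM in pluripotent culture (1.01 ± 0.14). None of 21 genes of cholesterol synthesis was called by edgeR, with a median of -0.14, and none of 17 tested p53 targets, with a median of 0.35. At an unadjusted p below 0.05 and any fold, 1 cholesterol gene was higher and 4 were lower, and 8 p53 targets were higher and 2 lower; DESeq2 and limma called none of either list. DESeq2 did not call Vegfa, and limma on log2(FPKM + 1) did not call Pdk1.

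Of 10 Ragulator and RAG genes, the machinery that Hbxip belongs to, 2 rose and none fell, with a median of 0.33. Rragb was at 30.7 FPKM in embryoid bodies and 14.4 FPKM in pluripotent culture (1.11 ± 0.12) and Rragd at 20.4 FPKM in embryoid bodies and 6.96 FPKM in pluripotent culture (1.57 ± 0.12), both RAG GTPases. The scaffold genes Lamtor1 to Lamtor4 were not called, with changes between -0.15 and 0.67. Among 22 mTOR pathway genes, 2 rose and none fell, with a median of 0.05, a share of rises close to the 7.98% of all genes. Castor2, an arginine sensor gene, was at 5.54 FPKM in embryoid bodies and 1.24 FPKM in pluripotent culture (2.18 ± 0.22) and Akt1s1, the gene of PRAS40, at 26.8 FPKM in embryoid bodies and 12.4 FPKM in pluripotent culture (1.12 ± 0.19). In lysosome genes, 3 of 24 rose and 2 fell, with a median of 0.24, counts near the 7.98% and 6.39% of all genes. Hexa, a lysosomal hydrolase, was at 34.1 FPKM in embryoid bodies and 10.3 FPKM in pluripotent culture (1.74 ± 0.15), with Cd63 higher by 1.04 ± 0.15. Tfeb, the factor that drives lysosome genes, fell, with 5.19 FPKM in embryoid bodies and 19.6 FPKM in pluripotent culture (-1.89 ± 0.22), as did its relative Mitf (-1.36 ± 0.26). Among apoptosis genes, 15 of 16 were tested, 2 rose and 1 fell, with a median of 0.19, again near those shares of all genes. Casp8 was at 2.96 FPKM in embryoid bodies and 1.03 FPKM in pluripotent culture (1.55 ± 0.53) and Hrk at 0.27 FPKM in embryoid bodies and 1.15 FPKM in pluripotent culture (-2.07 ± 0.43). Bik, of the BH3-only family, was at 5.75 FPKM in embryoid bodies and 2.86 FPKM in pluripotent culture (1.02 ± 0.38), with an adjusted p of 0.0487 that was 0.0552 to 0.0642 when a KO embryoid body or KO pluripotent library was left out, in a range of 0.0251 to 1 over 16 alternatives. DESeq2 called neither Bik nor Casp8, and limma on log2(FPKM + 1) called none of Bik, Casp8, Hrk, Cd63 and Mitf.

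Embryoid bodies were also set against the WT library taken after 96 h without LIF, the other way out of pluripotent culture in the series. This comparison shares the embryoid body library with the one above. Fewer genes differed: 320 were higher (2.29% of those tested) and 387 lower (2.77%), together 5.05%, 43 and 74 of them by at least 4-fold. Naive genes were close, with 1 higher, 1 lower and a median difference of -0.05. Klf4 was at 17.3 FPKM in embryoid bodies and 21.1 FPKM after LIF withdrawal, a difference of -0.30 ± 0.15 that was not called. T was at 24 FPKM in embryoid bodies and 17.5 FPKM after LIF withdrawal (0.45 ± 0.20), also not called. Of the 20 FGF genes 7 were higher and 1 lower, with a median difference of 0.38. Fgf5 was at 78.8 FPKM in embryoid bodies and 22 FPKM after LIF withdrawal (1.85 ± 0.17, adjusted p = 5.97e-05). Fgf8 was at 30.8 and 10.7 FPKM in that order (1.49 ± 0.27, adjusted p = 0.00266), and Dusp6 at 132 and 51.8 FPKM (1.34 ± 0.14, adjusted p = 0.000131). In the WNT list 1 gene, Fzd7, was higher and 6 were lower, with Wnt3 at 2.46 FPKM in embryoid bodies and 5.41 FPKM after LIF withdrawal (-1.14 ± 0.36). Wnt3 passed the filter on low values only with the LIF withdrawal library, where it was high.

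The 6 largest differences in each direction included Foxa2 among the higher genes and 3 genes of contractile tissue among the lower. Foxa2 passed the filter on low values only through the WT embryoid body library. Of the contractile genes, Acta1 and Actc1 passed it only through the WT LIF withdrawal library. The direction of these differences was therefore set by the filter. Foxa2 had 92 counts in embryoid bodies and 4 after LIF withdrawal (4.51 ± 0.64, adjusted p = 0.000643). Ly6a (Sca-1), a surface protein, was at 13.2 FPKM in embryoid bodies and 1.18 FPKM after LIF withdrawal (3.44 ± 0.40). Tnfrsf1a, a TNF receptor gene, was at 6.97 and 0.9 FPKM in that order (2.93 ± 0.32), and Magel2 at 41.2 and 6.22 FPKM (2.72 ± 0.19, adjusted p = 7.70e-06). Fxyd2, a regulator of the sodium pump, had 78 counts in embryoid bodies and 3 after LIF withdrawal, and the histone gene H2bc8 had 18 and 0 counts in that order. Histone genes share near-identical sequence, so H2bc8 is uncertain. Acta1, skeletal actin, was at 0.42 FPKM in embryoid bodies and 8.24 FPKM after LIF withdrawal (-4.37 ± 0.59). Tagln, of smooth muscle, was at 3.86 and 47.9 FPKM in that order (-3.64 ± 0.22, adjusted p = 3.88e-06), and Actc1 at 0.53 and 6.17 FPKM (-3.52 ± 0.53). Nefl, a neurofilament gene, was at 5.8 FPKM in embryoid bodies and 44.8 FPKM after LIF withdrawal (-2.95 ± 0.27), Gadd45g at 1 and 8.06 FPKM (-3.00 ± 0.49) and Ccnd2 at 0.88 and 6.42 FPKM (-2.88 ± 0.28). The calls for Foxa2, H2bc8, Acta1, Actc1 and Gadd45g here were not made by DESeq2.

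The same step from pluripotent culture to embryoid bodies was taken by the KO cells, and the difference of the responses, WT minus KO, was tested as an interaction. It uses both WT libraries of the main comparison. The KO pluripotent libraries stood apart from the other libraries on the first principal component (51.5% of the variance), at 86.5 and 74.5 against -64.6 to 11.5, and every value of this difference uses at least 1 of them. Without replicate 1 of the pair 955 genes were called higher and 1377 lower, and without replicate 2, 1048 and 1651. With both, the response was called higher in WT for 1037 genes (7.41%) and lower for 1595 (11.4%), with a median of -0.04. That split depends on the scaling: with quantile normalization of log2(FPKM + 1) in limma it was 911 higher and 934 lower, or 49.4% higher, against 39.4% here. Changes in this paragraph and those that follow are log2 differences between the WT and the KO response, so a negative one means that the gene fell more, or rose less, in WT.

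Several streak genes that rose in WT were barely detected in KO. Of the 13 tested, 7 had a higher response in WT and 1 a lower one. Among the 7 is Cyp26a1, which passed the filter on low values only through the WT embryoid body library. T, Fgf8, Sp5 and Evx1, and Fst and Foxa2 below, averaged under 0.5 FPKM over the KO libraries. They passed only through WT libraries, so the filter itself favoured a higher WT response for them. T was at 24 FPKM in WT embryoid bodies and 0.28 FPKM in WT pluripotent culture, while KO libraries had 0.05 and 0.18 FPKM in embryoid bodies and 0.28 and 0.14 FPKM in pluripotent culture (7.38 ± 0.92, adjusted p = 8.76e-05). Fgf8 had 357 counts in WT embryoid bodies and none in WT pluripotent culture, against 6 and 7 counts in KO embryoid bodies and 2 and 6 in KO pluripotent culture; the fitted difference of 10.91 ± 1.48 (adjusted p = 0.000152) depends on how the 0 is treated. For Sp5 the counts were 215 in WT embryoid bodies and 5 in WT pluripotent culture, against 1 and 0 in KO embryoid bodies and 1 and 4 in KO pluripotent culture (7.64 ± 1.45, adjusted p = 0.00137). Without KO pluripotent replicate 2 the difference for Sp5 was 6.42 with an adjusted p of 0.0609, the highest of its 16 alternatives, of which the lowest was 1.63e-05. Fst, the activin antagonist, was at 29.8 and 0.58 FPKM in WT embryoid bodies and WT pluripotent culture, against 0.15 and 0 FPKM in KO embryoid bodies and 0.34 and 0.38 FPKM in KO pluripotent culture (8.06 ± 0.78, adjusted p = 1.55e-05). Eomes did not follow this pattern: it was at 35 and 5.1 FPKM in the same WT libraries and at 14.8 and 14.9 FPKM in KO embryoid bodies and 2.58 and 3.01 FPKM in KO pluripotent culture (0.49 ± 0.23, not called). Foxa2 was at 0 and 1 counts in KO embryoid bodies and 1 and 0 in KO pluripotent culture, and its difference was not called either (6.51 ± 2.80, adjusted p = 0.0808).

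Formative genes were divided. Of the 12, 3 responded more in WT and 7 less. Fgf5 was at 78.8 and 0.42 FPKM in WT embryoid bodies and WT pluripotent culture, against 8.11 and 10.5 FPKM in KO embryoid bodies and 1.11 and 0.63 FPKM in KO pluripotent culture (4.15 ± 0.51, adjusted p = 7.92e-05). Dnmt3b was at 182 and 41.3 FPKM in those WT libraries, against 34.9 and 41.3 and then 37.3 and 34.3 FPKM in the KO ones (2.17 ± 0.17, adjusted p = 3.22e-06). Otx2 rose in WT but had a smaller response than in KO, with 113 and 129.7 FPKM in KO embryoid bodies and 7.94 and 11.5 FPKM in KO pluripotent culture (-1.23 ± 0.29, adjusted p = 0.00490). Naive genes had the lower response in WT for 10 of 17 and the higher for none, with a median of -1.10. Klf4 was at 17.3 and 155 FPKM in WT embryoid bodies and WT pluripotent culture, against 51.7 and 41.6 FPKM in KO embryoid bodies and 85.6 and 90.5 FPKM in KO pluripotent culture (-2.12 ± 0.17, adjusted p = 4.09e-06). Socs3 was at 4.24 and 4.28 FPKM in KO embryoid bodies and 67.5 and 67.1 FPKM in KO pluripotent culture, close to the WT levels above, and its difference was not called (0.18 ± 0.17, adjusted p = 0.437).

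**Figure D5:**
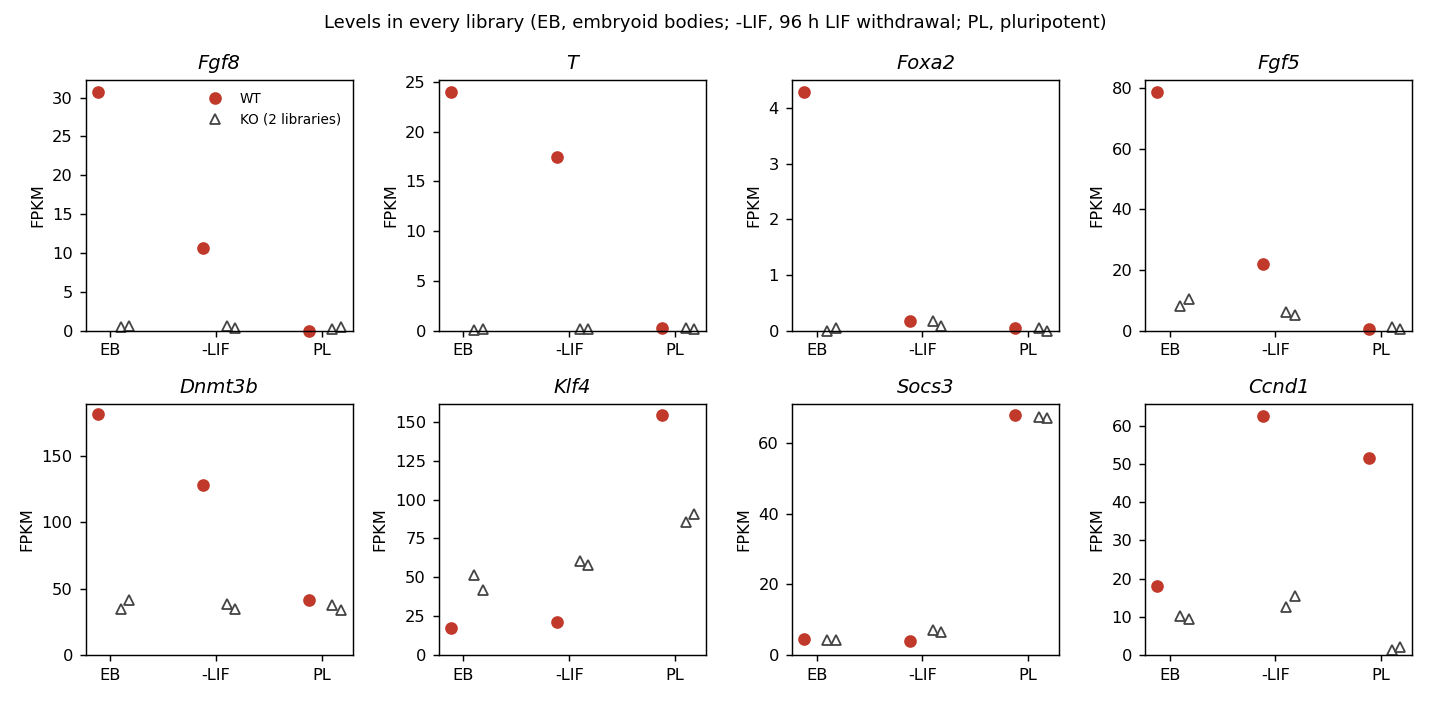
FPKM of 8 genes in all 9 libraries, by condition (embryoid bodies, LIF withdrawal, pluripotent culture), with WT as red circles and KO as open triangles. In embryoid bodies the WT points of Fgf8, T, Foxa2, Fgf5 and Dnmt3b lie above both KO points, the WT points of Klf4 lie below them, and the Socs3 points of both genotypes lie together.

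For the other genes with the largest differences of response, the level in KO pluripotent culture enters as much as that in KO embryoid bodies. Ly6a was at 13.2 FPKM in WT embryoid bodies and 2.55 FPKM in WT pluripotent culture, against 2.11 and 3.04 FPKM in KO embryoid bodies and 41.4 and 34.2 FPKM in KO pluripotent culture (6.41 ± 0.41), so it was higher in embryoid bodies in WT and lower in KO. Snora75, a small nucleolar RNA gene, rested on 6 and 0 counts in WT embryoid bodies and WT pluripotent culture; its adjusted p of 0.0434 was 0.124 without KO pluripotent replicate 1, 0.0631 without KO embryoid body replicate 1 and 0.0679 without replicate 2, in a range of 0.00144 to 0.466 over 15 alternatives. Napsa, an aspartic protease gene, was at 2.09 and 16.3 FPKM in WT embryoid bodies and WT pluripotent culture, against 16.1 and 13 FPKM in KO embryoid bodies and 2.27 and 1.99 FPKM in KO pluripotent culture (-5.56 ± 0.32, adjusted p = 5.31e-07). Car12 and Calb2, a carbonic anhydrase and a calcium-binding protein gene, had few counts in the KO pluripotent libraries, 0 and 3 for Car12 and 2 and 0 for Calb2, and their differences were -6.06 ± 0.78 and -5.96 ± 0.85. A2m and Inhbb, among the largest falls in WT, had differences of -5.14 ± 0.66 and -5.11 ± 0.63. Mir8112 rested on 0 counts in WT embryoid bodies, and its adjusted p of 0.0220 was 0.0578 without KO embryoid body replicate 1, in a range of 0.000946 to 0.348 over 15 alternatives. DESeq2 called neither Snora75 nor Mir8112. Ccnd1 fell in WT while KO embryoid bodies had 10.2 and 9.51 FPKM and KO pluripotent culture 1.28 and 1.98 FPKM (-3.98 ± 0.22, adjusted p = 4.07e-07). By list, 8 of 20 FGF genes had a higher and 3 a lower response in WT, against 7.41% and 11.4% of all genes. The counts were 5 and 7 among 27 WNT genes, 5 and 2 among 24 imprinted genes, and 0 and 9 among 17 hypoxia genes.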

How the data were processed

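RNA was total RNA extracted with a column kit, and libraries followed standard Illumina protocols, per the labels' protocols. The submitters' processing notes name Bowtie2 and mm8, without versions; the quantifier, its annotation and whether it used strand are not given in the sources used here. The 9 deposited files, 1 per library, hold for every listed gene the authors' expected count and FPKM, as their headers name them; 78.0% to 78.4% of the expected counts lay within 0.005 of a whole number. Genes missing from a file were set to 0, and expected counts were rounded. Of 20287 gene IDs in any file, 20234 matched the mouse RefSeq table by ID and 9 by accession, and 44 kept the name in the files. No coordinates were taken from the deposited files.

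Genes with a mean of at least 0.5 FPKM over the 9 libraries were tested (13990). edgeR 4.0.16 in R 4.3.3 fitted 6 group means with TMM factors, and its quasi-likelihood test with Benjamini-Hochberg adjustment gave all adjusted p-values; a call needed an adjusted p below 0.05 and a 2-fold change. The spread was thus estimated from the 3 KO pairs alone. SE is the log2 change over the square root of F. Intervals of CPM ratios are exact binomial, 95%. Alternatives were 16 in number, among them DESeq2 1.42.0, limma 3.58.1 on log2(FPKM + 1) or log2(FPKM + 0.1), other scalings and filters, a preset coefficient of variation of 0.2 or 0.4, and leaving out each KO library. Python 3.11.15, pandas 2.3.3, numpy 2.4.6, scipy 1.17.1 and matplotlib 3.10.9 made the tables and plots.

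Genes are named by rule: the 12 largest called changes each way between WT embryoid bodies and WT pluripotent culture with a mean of at least 2 FPKM over both, without clone names, the 6 largest each way in the other comparisons, and members of 35 lists (562 genes, 474 tested); some list members are counted but not reported here by name. The comparison and the lists were chosen with earlier results of these data known. Promoter windows are RefSeq's, 300 bases of GRCm38.p6, found for 10926 of the tested genes; bases after the start are not shown.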

Additional observations from a re-analysis of the deposited data

Results flagged for a closer look

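The embryoid body response differed between WT and KO cells by edgeR's quasi-likelihood test of the interaction for 1037 genes with a higher response in WT and 1595 with a lower one. Among the genes named in the report, the log2 difference, WT minus KO, was 10.91 for Fgf8, 8.06 for Fst, 7.64 for Sp5, 7.38 for T, 6.41 for Ly6a, 6.29 for Snora75, 5.37 for Sema6a, 4.15 for Fgf5 and 2.33 for Car4. It was -6.55 for Mir8112, -6.06 for Car12, -5.96 for Calb2, -5.56 for Napsa, -5.14 for A2m and -5.11 for Inhbb. Smaller differences were found for Ly6g6d at -3.73, Myo1g at -2.98, Myo1f at -2.85 and Hal at -1.77. Fgf8, Fst, Sp5, T and Sema6a averaged under 0.5 FPKM over the KO libraries, so they passed the filter on low values only through WT libraries. Fgf8 and Snora75 had 0 counts in WT pluripotent culture and Mir8112 had 0 counts in WT embryoid bodies, so the fitted sizes of these differences depend on how a 0 is treated. Snora75, Mir8112 and Sp5 each lost the call when 1 KO library was left out, with adjusted p-values of 0.0631 to 0.124, 0.0578 and 0.0609. All of them use the KO pluripotent libraries, which stood apart from the other libraries, and 1 WT library per condition. Their part in these differences was not tested. Each condition has 1 WT library and 2 KO libraries, too few to look for a single library that stands apart within a group.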

How the results depend on the processing

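Of the 195 gene results followed (171 of the main comparison and the 12 largest changes of each other one), none changed sign under the 16 alternatives; other calls named for the difference of responses or against LIF withdrawal were not followed. Counts moved most with the assumed spread. With a coefficient of variation of 0.2, 690 genes were higher and 579 lower between WT embryoid bodies and WT pluripotent culture, 407 higher and 801 lower in the difference of responses, and 92 higher and 124 lower between embryoid bodies and LIF withdrawal. With 0.4 these were 65 and 29, 34 and 42, and 7 and 7. DESeq2 called 724 higher and 592 lower in the main comparison, 751 higher and 1031 lower in the difference of responses, and 136 higher and 215 lower against LIF withdrawal, leaving the adjusted p of 814, 543 and 2170 genes undefined. limma on log2(FPKM + 1) called 700 higher and 607 lower in the main comparison, 744 and 1216 in the difference of responses, and 194 higher and 186 lower against LIF withdrawal. After quantile normalization limma called 711 higher and 654 lower in the main comparison, 911 and 934 in the difference of responses, and 201 higher and 224 lower against LIF withdrawal. Such alternatives test FPKM with a pseudocount, which shrinks the change of low genes by construction; for the others the cause was not tested. The median difference of responses was -0.04 in edgeR, -0.10 and -0.15 in limma with a pseudocount of 1 and 0.1, and -0.0094 after quantile normalization.

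Leaving out each KO library gave 1083 to 1133 higher and 877 to 916 lower in the main comparison, 949 to 1077 and 1377 to 1651 in the difference of responses, and 288 to 350 and 353 to 405 against LIF withdrawal. Of 171 genes followed, 26 kept their call under every alternative and 107 under every one but the coefficient of 0.4. Of the 155 list genes called, 118 were called at 0.2 and 18 at 0.4, and of the 24 largest changes, 24 and 21. A replicate block gave 1153 higher and 925 lower, 1073 and 1679, and 375 and 436, and 4 in place of 2 hypoxia genes lower in the main comparison. Deviations of KO libraries with the same replicate number correlated at 0.183, 0.022 and 0.071 between conditions. Counting error also lowers such correlations, so they cannot decide if the numbers pair the samples, which the labels do not say. Leaving out members that pass the filter through 1 WT library alone, an alternative chosen after seeing the data, changed the primitive streak count to 8 rises, the endoderm count to 4 and the Hox and Cdx count to 1; Hoxd1, Nkx2-5, Klf1 and Sox21 also passed that way and were not called. The WT libraries cannot be left out, and a change that fewer than 3 counts separate was not detectable at this depth.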
